A study of Mus musculus with 6 samples.

Results

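Lysosomal genes, 51 in number, were followed across 6 arrays of mouse bone marrow cultures that had received heme or its vehicle. The members were taken from a list of gene names and not by measured values: 12 cathepsins and other proteases, 20 glycosidases, sulfatases, lipases and phosphatases, 3 soluble activators and carriers, 6 membrane proteins and 10 subunits of the vacuolar proton pump (V-ATPase). Of 19938 genes with a probe set that named them alone, 11516 were kept because the highest of their 6 values reached 5.37, the median of all log2 values. All 51 members had such a probe set and all 51 were kept. The lowest value of any member was 5.48, so no level of a member lay below the filter. For Arsb, the 1 member with several probe sets, the brighter was used.

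Heme cultures had received 80 µM heme (the labels type the unit as µm) and were taken at 6, 24 and 72 h, with 1 array at each time. Vehicle cultures, given a salt solution with ammonium hydroxide, were taken at the same 3 times with 1 array each. All 6 came from bone marrow of Spic(igfp/igfp) mice, kept for 6 days before treatment in serum-containing medium to which GM-CSF had been added at 20 ng/ml. GM-CSF is a growth factor under which marrow gives rise to macrophage and dendritic cells. No array of another genotype was analysed here. Only the adherent cells were collected, by scraping. The labels do not say what the igfp allele carries, nor how many mice or cultures gave each RNA. Over the 3 times a difference is written as heme minus vehicle on the log2 scale, as mean ± SD (n = 3 time points). Its p-value rests on the spread between times, which limma draws towards that of all genes kept, and not on spread between cultures.

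Lysosomes are acidic compartments in which macrophages break down engulfed cells, proteins, sugars and lipids. The V-ATPase pumps protons into them, soluble hydrolases cut the cargo at acid pH, and membrane proteins line the compartment and export the products. Macrophages that engulf red cells release heme from hemoglobin in such compartments. Many lysosomal genes share promoter elements bound by TFEB, TFE3 and MITF, which are held in the cytosol when nutrient-sensing Rag GTPases on the lysosome are active.

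Medians of the 6 arrays ran from 5.34 to 5.45, the highest on the 6 h heme array. Over the genes kept that array had the lowest median, 6.96, against 7.01 to 7.13 on the others. Its SD over all values was the smallest, 2.19 against 2.21 to 2.25. The median difference over all genes kept was -0.104, -0.020 and 0.034 at 6, 24 and 72 h. Centring each array on its median moved the first of these to -0.219. Differences of the members are therefore read against these medians. All 7 macrophage markers were kept. With heme 1 of them rose, Cd14, the lipopolysaccharide co-receptor, by 1.09 ± 0.26 (limma, adjusted p = 0.00825). Mean differences of the other 6 were 0.28 ± 0.14 for Csf1r, 0.15 ± 0.39 for Adgre1, -0.12 ± 0.22 for Cd68, -0.20 ± 0.34 for Mertk, -0.57 ± 0.53 for Mrc1 and -0.58 ± 0.20 for Fcgr1, so that 4 of 7 lay below 0. Fcgr1, a high-affinity Fc receptor, was lower at each time (limma, adjusted p = 0.0999), and Mrc1, the mannose receptor, at 6 and 24 h (adjusted p = 0.262). Of the dendritic cell markers analysed, 3 of 6 were kept, with Flt3, Zbtb46 and Cd209a below the filter on all 6 arrays, and B and T cell (0 of 5) and erythroid markers (0 of 4) stayed below it throughout. Of the 3 dendritic cell markers kept, Ccr7, a homing receptor of mature dendritic cells, rose with heme by 1.16 ± 0.59 (limma, adjusted p = 0.0279), while Cd74 and Itgax had mean differences of 0.085 ± 0.22 and -0.085 ± 0.39 (adjusted p = 0.921 and 0.933). Of 9 neutrophil markers 8 were kept, and 0 of these passed the test with heme. The sum of their 9 log2 values ran from 52.8 to 72.8 on heme arrays and from 51.7 to 71.2 on vehicle arrays, and their median difference was 0.222, 1.40 and -0.009 at 6, 24 and 72 h. S100a9, 1 of these markers, had 12.13, 11.66 and 8.30 with heme at 6, 24 and 72 h, against 12.08, 9.53 and 7.25 with vehicle. Its part in the differences below was not tested. In RNA from whole adherent cultures, fewer cells of a type and less RNA per cell cannot be told apart.

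With heme, 1 of the 51 lysosomal genes fell over the 3 times and 0 rose at an adjusted p of 0.05 in limma. Of all genes kept, 0.59% fell and 1.13% rose. The gene that fell was Lgmn, which encodes the cysteine protease legumain. The other differences were small and mostly of the same sign: the mean was below 0 in 46 of 51 members (90.2%), against 58.6% of all genes kept, and lay between -0.91 and 0.26. At all 3 times 29 members (56.9%) lay below their vehicle value and 1 above it, against 17.4% and 12.8% of all genes. At an unadjusted p under 0.05 in limma, 13 members (25.5%) were lower and 0 higher, where 5.65% and 4.97% of all genes were. Among genes averaging 8 or more, the median difference at 6, 24 and 72 h was -0.249, -0.227 and -0.117 in 41 members, against -0.138, -0.058 and 0.031 in all 3161. Among genes averaging under 8 it was -0.481, -0.142 and -0.156 in 10 members, against -0.090, -0.005 and 0.034 in all 8355. The members had been listed with earlier results of these arrays known, so these shares are descriptions.

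The count of lower members was highest at 6 h. Past 1.5-fold, 10 members (19.6%) were lower and 0 higher at 6 h, against 6.89% and 3.36% of all genes kept. At 24 h 2 members (3.92%) were lower and 0 higher, against 2.83% and 3.70%. At 72 h 2 (3.92%) were lower and 0 higher, against 2.67% and 4.21%. With 1 array a group no test was possible at a single time.

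**Figure D1:**
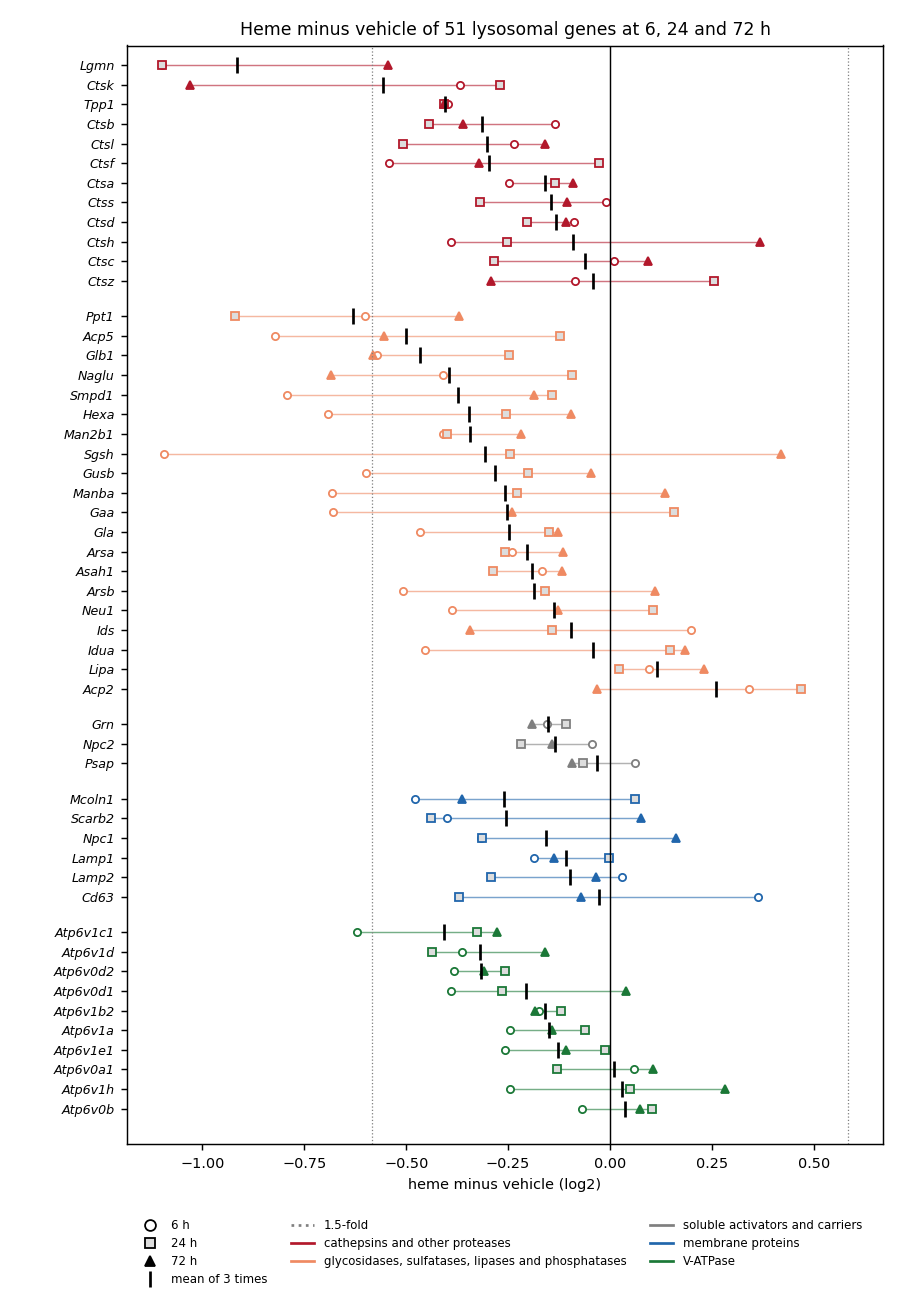
Heme minus vehicle differences (log2, horizontal axis) of the 51 members, grouped by class and ordered by mean. Each row is a gene, with its difference at 6 h (open circle), 24 h (grey square) and 72 h (filled triangle) and the mean as a black tick, and dotted lines mark 1.5-fold. Means of 46 members lie left of 0, and Lgmn lies farthest left at -0.91.

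Class medians were lowest at different times. Glycosidases, sulfatases, lipases and phosphatases had median differences of -0.486, -0.154 and -0.122 over the 3 times, and held 8 of the 10 members past 1.5-fold at 6 h. Cathepsins and other proteases had medians of -0.242, -0.276 and -0.226. Membrane proteins had -0.251, -0.303 and -0.053, and the V-ATPase -0.252, -0.125 and -0.126. The 3 soluble activators and carriers, nearest to 0 at 6 and 24 h, had -0.043, -0.107 and -0.142. Differences between classes were not tested.

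**Figure D2:**
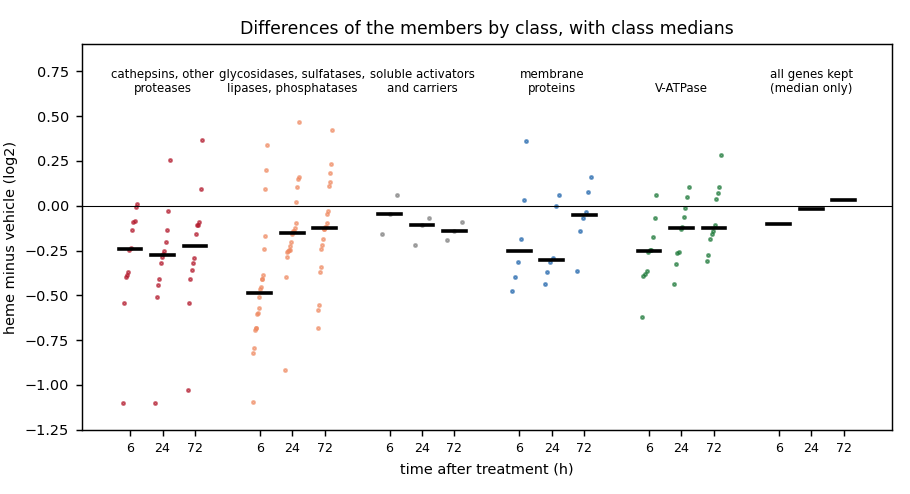
Heme minus vehicle differences (log2, vertical axis) at 6, 24 and 72 h for the members of each class (dots, 1 a gene) with the class median (black bar), and the median of all 11516 genes kept at the right. The glycosidase class is lowest at 6 h (-0.486), and its medians at 24 and 72 h are -0.154 and -0.122.

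Among the proteases, Lgmn, which cleaves after asparagine and processes other cathepsins, had 9.001, 9.24 and 9.81 on the heme arrays at 6, 24 and 72 h, against 10.10, 10.34 and 10.35 on the vehicle arrays. All heme values lay below all vehicle values. How many of all genes kept show such a lack of overlap was not counted, so here and below it only describes the values. It fell by 0.91 ± 0.32 (limma, adjusted p = 0.0235), which corresponds to 0.467, 0.467 and 0.685 of the vehicle level at 6, 24 and 72 h. Without the 24 h pair of arrays the call was lost (limma, adjusted p = 0.418), as it was without the time term (0.322), with mean differences of -0.82 and -0.91.

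Ctsk, a collagen-cleaving cathepsin best known from osteoclasts, had 7.77, 8.39 and 8.01 with heme, against 8.14, 8.66 and 9.04 with vehicle. The heme value was lower at each time, with the widest gap at 72 h, where vehicle was highest. The mean difference of -0.56 ± 0.41 missed the threshold (limma, adjusted p = 0.213). When the 6 h arrays were left out Ctsk passed (adjusted p = 0.029), in a fit with 1 residual degree of freedom and a prior of 46.9. Tpp1, a tripeptidyl peptidase whose loss causes a childhood lysosomal storage disease in humans, had 10.17, 10.29 and 10.41 with heme, against 10.57, 10.69 and 10.82 with vehicle. Its differences were nearly equal at the 3 times, at -0.40, -0.41 and -0.41 (SD 0.0054), and all heme values lay below all vehicle values (limma, adjusted p = 0.239). Ctsb, an abundant cysteine cathepsin, had 11.96, 12.11 and 12.29 with heme, against 12.10, 12.56 and 12.65 with vehicle (mean difference -0.31 ± 0.16; limma, adjusted p = 0.463). The values of the groups overlapped, since the heme level at 72 h was above the vehicle level at 6 h.

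Ctsl, the cathepsin that trims the invariant chain in thymic epithelium, had 10.94, 11.21 and 11.72 with heme, against 11.17, 11.72 and 11.88 with vehicle, and Ctsf, a less studied cysteine cathepsin, 6.04, 7.09 and 6.88 with heme, against 6.58, 7.12 and 7.20 with vehicle. Heme was lower at each time for both, and adjusted p-values were 0.503 and 0.56 in limma. Ctsh, an aminopeptidase, had differences of both signs: it had 8.99, 10.10 and 10.78 with heme, against 9.38, 10.35 and 10.41 with vehicle, lower with heme at 6 and 24 h and higher at 72 h. Ctsc, which activates serine proteases of granulocytes, had 11.42, 11.19 and 11.41 with heme, against 11.41, 11.48 and 11.32 with vehicle. Ctsz had 11.74, 12.11 and 11.77 with heme, against 11.83, 11.86 and 12.07 with vehicle. Neither lay on 1 side of vehicle at all 3 times. The remaining Ctsa, Ctsd and Ctss, a carboxypeptidase, the main aspartic protease and the cathepsin that frees MHC class II of invariant chain, had mean differences of -0.16 ± 0.081, -0.13 ± 0.062 and -0.14 ± 0.16, below 0 at each time.

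**Figure D3:**
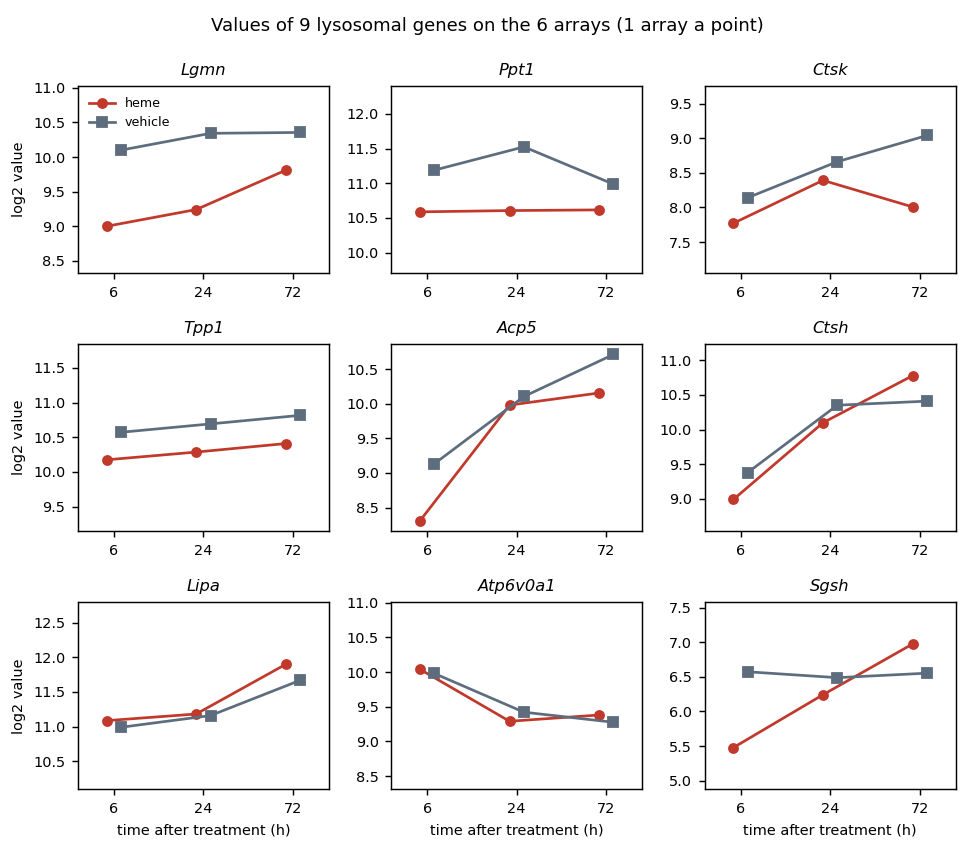
Log2 values (vertical axis) of 9 members on the heme (red circles) and vehicle (grey squares) arrays at 6, 24 and 72 h, spaced evenly, with 1 array a point and an equal span of the vertical axis in every panel. Lgmn, Ppt1 and Tpp1 are lower with heme at each time, Acp5 and Ctsh are higher at 72 h than at 6 h under both treatments, and Sgsh crosses between 24 and 72 h.

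Of the 20 sugar, sulfate, lipid and phosphate hydrolases, 0 passed the test, and 18 had a mean below 0. Ppt1, which removes palmitate from proteins, was nearest to a call. It had 10.59, 10.61 and 10.62 with heme at 6, 24 and 72 h, against 11.19, 11.53 and 10.99 with vehicle, so that heme values were level over time and all below the vehicle values. Its mean difference was -0.63 ± 0.28 (limma, adjusted p = 0.0925), and it passed after median-centring (0.0461) and without the 6 h pair (0.0258). Acp5, the tartrate-resistant acid phosphatase of osteoclasts and activated macrophages, had 8.31, 9.98 and 10.15 with heme, against 9.13, 10.10 and 10.71 with vehicle (mean difference -0.50 ± 0.35; limma, adjusted p = 0.237). Heme was lower at each time, and least so at 24 h.

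Glb1, the beta-galactosidase that trims gangliosides and keratan sulfate, had 7.60, 7.87 and 7.43 with heme, against 8.17, 8.12 and 8.01 with vehicle, with no overlap of the groups (mean difference -0.47 ± 0.19; limma, adjusted p = 0.197). Naglu, which acts on heparan sulfate, had 7.54, 7.83 and 7.39 with heme, against 7.95, 7.92 and 8.07 with vehicle. Its gap was widest at 72 h, and the groups did not overlap (limma, adjusted p = 0.362). Man2b1, an alpha-mannosidase, had 11.03, 11.36 and 11.70 with heme, against 11.45, 11.76 and 11.92 with vehicle, lower at each time (mean difference -0.34 ± 0.11; limma, adjusted p = 0.372).

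A further 6 of these genes were lower with heme past 1.5-fold at 6 h and closer to vehicle afterwards. They were picked by their 6 h value, so the smaller later gap is not read as a trait of a group. Smpd1, acid sphingomyelinase, had 6.71, 7.40 and 7.16 with heme, against 7.51, 7.54 and 7.35 with vehicle. Hexa, the alpha subunit of the enzyme that degrades GM2 ganglioside, had 10.39, 11.28 and 11.42 with heme, against 11.08, 11.53 and 11.51 with vehicle. Gusb, beta-glucuronidase, had 8.85, 9.12 and 9.25 with heme, against 9.45, 9.32 and 9.30 with vehicle. In these 3 genes the heme value was lower at all times. Gaa, the glucosidase that degrades glycogen, had 7.40, 8.41 and 8.46 with heme, against 8.08, 8.25 and 8.70 with vehicle, and Manba, a beta-mannosidase, 7.53, 8.05 and 8.26 with heme, against 8.21, 8.27 and 8.13 with vehicle. Gaa was higher with heme at 24 h and Manba at 72 h. Sgsh, a heparan sulfate sulfatase, had 5.48, 6.24 and 6.97 with heme, against 6.57, 6.49 and 6.55 with vehicle, with its vehicle value level and its heme value lowest at 6 h and highest at 72 h. Adjusted p-values of these 6 genes lay between 0.458 and 0.803 in limma, and whether the difference changed with time could not be tested, since 1 array a group leaves no residual degrees of freedom.

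Lipa and Acp2 had means above 0. Lipa, the acid lipase that frees cholesterol and fatty acids from engulfed lipoprotein, had 11.09, 11.18 and 11.90 with heme, against 10.99, 11.16 and 11.67 with vehicle, and was the 1 member higher with heme at all 3 times (mean difference 0.12 ± 0.11; limma, adjusted p = 0.881). Acp2, lysosomal acid phosphatase, had 9.39, 9.75 and 9.76 with heme, against 9.05, 9.28 and 9.79 with vehicle (limma, adjusted p = 0.647). It was higher with heme at 6 and 24 h. Idua, which acts on dermatan and heparan sulfate, had 6.67, 7.17 and 7.28 with heme, against 7.13, 7.02 and 7.10 with vehicle, lower at 6 h and higher later. The 6 others (Gla, Asah1, Arsa, Arsb, Neu1 and Ids) had mean differences from -0.247 to -0.095. Gla, Asah1 and Arsa, which act on globotriaosylceramide, ceramide and sulfatide, were below vehicle at each time. Arsb, a sulfatase of dermatan sulfate, had 7.12, 7.19 and 7.27 with heme, against 7.63, 7.35 and 7.16 with vehicle, lower with heme at 6 and 24 h and higher at 72 h.

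Psap, Grn and Npc2 had mean differences from -0.151 to -0.033. Psap, the precursor of the saposins that present lipids to hydrolases, had 12.78, 12.85 and 12.85 with heme, against 12.72, 12.92 and 12.94 with vehicle. Grn, progranulin, had 12.38, 12.43 and 12.35 with heme, against 12.53, 12.54 and 12.54 with vehicle. Npc2, which carries cholesterol inside the lysosome, had 11.63, 11.70 and 11.60 with heme, against 11.67, 11.92 and 11.74 with vehicle. Grn and Npc2 were lower with heme at each time, by 0.043 to 0.219. Of these 3 genes 0 passed the test, with adjusted p-values from 0.822 to 0.967 in limma.

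Of the 6 membrane proteins 0 passed the test, and all 6 means lay between -0.26 and -0.026. Mcoln1, the calcium channel TRPML1, had 8.77, 9.03 and 8.60 with heme, against 9.25, 8.97 and 8.96 with vehicle, and was higher with heme at 24 h alone. Scarb2, the receptor that carries glucocerebrosidase to lysosomes, had 9.32, 9.74 and 10.26 with heme, against 9.72, 10.17 and 10.18 with vehicle. Npc1, the cholesterol exporter that takes its load from NPC2, had 9.87, 10.12 and 10.48 with heme, against 10.19, 10.43 and 10.32 with vehicle. Scarb2 and Npc1 were lower with heme at 6 and 24 h and higher at 72 h. Lamp1, a widely used lysosomal marker, had 11.62, 11.95 and 11.90 with heme, against 11.80, 11.96 and 12.03 with vehicle, and was the 1 membrane protein below vehicle at each time, with a gap of 0.0025 at 24 h. Lamp2 had 10.85, 10.89 and 11.07 with heme, against 10.82, 11.18 and 11.10 with vehicle. Cd63, a tetraspanin of late endosomes and secretory lysosomes, had 11.70, 11.30 and 11.70 with heme, against 11.34, 11.67 and 11.77 with vehicle, higher with heme at 6 h and lower at 24 and 72 h.

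Proton pump subunits were lower in part, and 0 of 10 passed the test. In the cytosolic V1 sector, which hydrolyses ATP, Atp6v1c1, a stalk subunit, had 9.47, 9.62 and 9.65 with heme, against 10.09, 9.95 and 9.92 with vehicle, with no overlap of the groups (mean difference -0.41 ± 0.19; limma, adjusted p = 0.272). Atp6v1d, part of the rotor, had 9.60, 9.60 and 9.68 with heme, against 9.97, 10.04 and 9.84 with vehicle, again with no overlap (limma, adjusted p = 0.436). Atp6v1h, a regulatory subunit, had 8.42, 8.42 and 8.66 with heme, against 8.66, 8.37 and 8.38 with vehicle, lower with heme at 6 h and higher at 72 h. The catalytic subunit gene Atp6v1a and its partners Atp6v1b2 and Atp6v1e1 had mean differences of -0.15 ± 0.092, -0.16 ± 0.035 and -0.13 ± 0.12, below 0 at each time. Atp6v1a had 9.96, 10.10 and 10.11 with heme, against 10.21, 10.16 and 10.25 with vehicle, and Atp6v1b2 10.68, 10.66 and 10.62 with heme, against 10.85, 10.78 and 10.81 with vehicle, without overlap in either gene. Atp6v1e1 had 9.75, 10.21 and 9.93 with heme, against 10.01, 10.22 and 10.04 with vehicle, with overlap.

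In the membrane-bound V0 sector, Atp6v0d2, the d subunit form of osteoclasts and other macrophage-derived cells, had 11.61, 11.69 and 11.75 with heme, against 11.99, 11.94 and 12.06 with vehicle. The groups did not overlap (mean difference -0.32 ± 0.063; limma, adjusted p = 0.419). Its broadly expressed counterpart Atp6v0d1 had 9.26, 9.52 and 9.36 with heme, against 9.64, 9.78 and 9.32 with vehicle, lower at 6 and 24 h. Atp6v0a1, an a subunit of the proton path, had 10.04, 9.29 and 9.38 with heme, against 9.98, 9.42 and 9.28 with vehicle, and Atp6v0b, a ring subunit, 10.51, 10.88 and 10.53 with heme, against 10.58, 10.78 and 10.46 with vehicle. Both stayed within 0.131 of vehicle at each time. The signs of the mean differences of Atp6v0a1, Atp6v0b and Atp6v1h (0.011, 0.036 and 0.028) turned after median-centring (-0.025, -0.0003 and -0.008).

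Acp5, Ctsk and Atp6v0d2, all below vehicle at each time, are also used as osteoclast genes. Of 8 markers of osteoclasts and giant cells 5 were kept, and Calcr, Itgb3 and Oscar lay below the filter on every array. The sum of the 8 log2 values ran from 48.6 to 49.7 with heme and from 46.7 to 49.9 with vehicle. Dcstamp, required for the fusion of such cells, had 10.31, 10.12 and 9.82 with heme, against 9.22, 9.36 and 9.85 with vehicle, and did not pass (limma, adjusted p = 0.257). Ocstamp, also a fusion gene, had differences of 1.08, -0.49 and -0.80, on both sides of 0, and Nfatc1, the osteoclast transcription factor, -0.54, 0.067 and -0.25, with a mean of -0.24 ± 0.31. Tnfrsf11a, the receptor RANK, had a mean of 0.081 ± 0.052. Mmp9 lay below the filter on 5 of the 6 arrays, with a mean of 0.48 ± 0.51, or 0.20 with those values set to 5.37. Of the 5 markers 0 passed and 2 (40.0%) had a mean below 0, against 58.6% of all genes kept. The part of such cells in the values of Acp5, Ctsk and Atp6v0d2 was not tested.

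More members passed the test for time in culture than for heme. In the fit with treatment and time, 6 of 51 members (11.8%) rose and 1 (1.96%) fell at 72 h relative to 6 h, where 3.06% and 3.53% of all genes kept did. Here p-values rest on how far time differences over all 3 times varied between heme and vehicle cultures, again drawn by limma towards all genes kept. Acp5 rose by 1.71 ± 0.20 (limma coefficient ± SE, adjusted p = 0.00128), with 1.84 in heme cultures and 1.58 in vehicle cultures. Ctsh rose by 1.41 ± 0.21 (limma, adjusted p = 0.00378), with 1.79 in heme cultures and 1.03 in vehicle cultures. Ctsl (0.75 ± 0.17), Ctsf (0.73 ± 0.18), Gaa (0.84 ± 0.21) and Lipa (0.75 ± 0.16) rose as well (limma, adjusted p = 0.0319, 0.0457, 0.0471 and 0.0262).

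The pump subunit gene Atp6v0a1 fell by 0.68 ± 0.17 (limma, adjusted p = 0.0409), by 0.66 in heme cultures and 0.70 in vehicle cultures. Values of both 6 h arrays were above those of the 4 later arrays. The other 9 pump subunits had coefficients between -0.107 and 0.106. Without the 24 h pair or without the treatment term, 2 members were called, Ctsh and Acp5. After a second quantile normalization, cyclic loess or no level filter, Ctsf and Gaa did not pass (limma, adjusted p from 0.0502 to 0.0599).

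At 24 h relative to 6 h 1 member rose, Acp5 (limma coefficient ± SE 1.32 ± 0.20, adjusted p = 0.0327), and 0 fell, against 0.226% and 0.373% of all genes. This contrast shares its 6 h arrays with the one above. After cyclic loess 0 members passed, and after median-centring or without the 72 h pair Ctsh passed as well. By class, the median coefficient at 72 h was 0.371 for proteases, 0.308 for the sugar and lipid hydrolases, 0.253 for membrane proteins, 0.020 for the soluble activators and -0.024 for the pump, against 0.003 for all genes kept. Of the proteases 11 of 12 (91.7%) were higher at 72 h than at 6 h under both treatments, against 28.6% of all genes kept. Of the pump subunits 3 of 10 (30.0%) were, near the share of all genes.

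Markers of cell types moved over the same interval. Of 8 neutrophil markers kept 6 (75.0%) fell at 72 h relative to 6 h, against 3.53% of all genes kept, with a median coefficient of -2.31. Ly6g, 1 of the 6, and Elane, which did not pass, were each kept only through a 6 h value (5.38 with vehicle and 5.44 with heme). The fall of Ly6g is therefore not read as a result. Ltf and Ngp, which fell, lay below the filter at 72 h under both treatments. Of 7 macrophage markers 3 (42.9%) rose, Cd14, Csf1r and Mertk, against 3.06% of all genes kept. Mertk, which recognises dying cells, rose by 1.33 ± 0.20 (limma, adjusted p = 0.00373). Of 7 fibroblast and stroma markers 4 were kept, with Lum, Pdgfra and Pdgfrb below the filter. All 4 were higher at 72 h than at 6 h under both treatments, against 28.6% of all genes kept. Their median coefficient was 0.725, and 1 rose, the matrix proteoglycan gene Dcn, by 1.57 ± 0.27 (limma, adjusted p = 0.00926). Col3a1, also 1 of the 4, lay below the filter on 4 arrays and was kept only through its 24 and 72 h heme values (5.42 and 5.54). Its rise is therefore not read as a result. The sum of the 7 log2 values ran from 37.2 to 42.8 on heme arrays and from 37.9 to 40.8 on vehicle arrays. The part of these cells in the rise of the lysosomal genes was not tested.

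**Figure D4:**
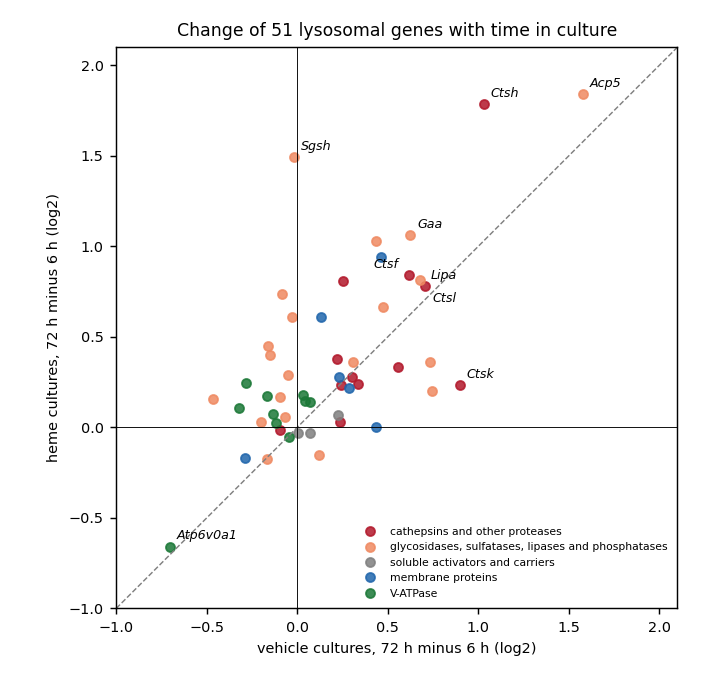
Change from 6 to 72 h (log2) of the 51 members in heme cultures (vertical axis) and in vehicle cultures (horizontal axis), with 1 point a gene, coloured by class, and a dashed line of equal change. Acp5 and Ctsh lie farthest to the upper right, Atp6v0a1 is the lowest point at -0.66 and -0.70, and Sgsh has 1.49 in heme cultures and -0.020 in vehicle cultures.

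Promoters of the members were set beside these values, because TFEB, TFE3 and MITF bind an element centred on TCACGTGA. RefSeq windows of 300 bases (GRCm38.p6, 250 before to 50 after a start site) were given for 43 of 51 members. Asah1, Atp6v0d2, Atp6v1b2, Atp6v1c1, Atp6v1h, Ctsb, Ctsh and Npc1 had none. Both strands were searched, and a match says only that the letters are there. TCACGTGA was in 6 of 43 members (14.0%), against 2.22% of 9291 genes kept and 1.12% of all 27025 genes with a window. CACGTG, which lies inside it, was in 16 members (37.2%), against 11.6% and 8.09%. TGANNNNGC, the core of the antioxidant element of NRF2 and BACH1, was in 24 (55.8%), against 47.4% and 45.0%. Stretches of 40 bases around each TCACGTGA show how its flanks differ, with the motif in capitals, written 5′ to 3′ on the strand of the gene.
Atp6v0d1, chr8:105566045-105566084, minus strand: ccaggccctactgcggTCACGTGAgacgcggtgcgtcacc
Atp6v1a, chr16:44139368-44139407, minus strand: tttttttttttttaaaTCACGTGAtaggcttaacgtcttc
Ctsa, chr2:164833744-164833783, plus strand: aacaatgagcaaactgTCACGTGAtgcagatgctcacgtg
Ctsa, chr2:164833761-164833800, plus strand: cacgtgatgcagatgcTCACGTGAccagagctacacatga
Ctsd, chr7:142387903-142387942, minus strand: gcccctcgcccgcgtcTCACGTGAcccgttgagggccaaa
Gla, chrX:134601210-134601249, minus strand: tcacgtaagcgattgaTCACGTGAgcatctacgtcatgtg
Gla, chrX:134601177-134601216, minus strand: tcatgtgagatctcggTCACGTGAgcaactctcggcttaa
Mcoln1, chr8:3500457-3500496, plus strand: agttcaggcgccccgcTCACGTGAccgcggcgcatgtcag

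Counted from the start site, with bases before it negative, the first base of the motif lay between -228 (Gla, which holds 2 copies) and 5 (Ctsa, whose 2 copies overlap in their flanks). For Ctsa and Atp6v1a the start site of the window and the motif lie inside the annotated gene. The 6 genes had mean heme minus vehicle differences from -0.26 to -0.13, with a median of -0.182, and the 37 members with a window and no TCACGTGA had a median of -0.204. With CACGTG the median of 16 members was -0.251, against -0.145 for 27 without. With TGANNNNGC it was -0.195 for 24, against -0.205 for 19 without. These splits were not tested. Lgmn, which fell, has CACGTG at -49 in the window of a start site inside the annotated gene. It has none in the window at the annotated 5′ end of the gene (chr12:102439679-102439978). Ctsl, which rose with time, has it at -236 from a start site that also lies inside the annotated gene, as does the motif. The Lgmn window that holds the motif and the Ctsl window are given, with the motif in capitals.
Lgmn, chr12:102439043-102439342, minus strand: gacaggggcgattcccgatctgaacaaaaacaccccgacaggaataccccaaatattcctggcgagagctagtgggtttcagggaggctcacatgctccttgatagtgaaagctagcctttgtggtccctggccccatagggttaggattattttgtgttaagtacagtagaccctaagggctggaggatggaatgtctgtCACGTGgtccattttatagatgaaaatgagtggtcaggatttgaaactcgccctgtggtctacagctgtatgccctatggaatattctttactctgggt
Ctsl, chr13:64370471-64370770, minus strand: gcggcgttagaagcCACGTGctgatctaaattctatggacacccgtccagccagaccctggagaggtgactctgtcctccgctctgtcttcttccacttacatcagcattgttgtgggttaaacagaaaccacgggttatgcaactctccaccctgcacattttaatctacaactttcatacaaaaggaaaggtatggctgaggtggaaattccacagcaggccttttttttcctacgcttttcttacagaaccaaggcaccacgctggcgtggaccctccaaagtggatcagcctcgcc

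Regulators of lysosomal genes did not pass the test. Of 8 kept, 0 rose and 0 fell, and 4 (50.0%) had a mean below 0, against 58.6% of all genes kept. The median difference of the 8 was 0.039, 0.063 and -0.103 at 6, 24 and 72 h. Members of the MiT/TFE family lay on both sides of vehicle. Tfeb had 6.92, 7.13 and 7.001 with heme, against 7.27, 7.32 and 7.58 with vehicle, lower at each time with no overlap (mean difference -0.38 ± 0.20; limma, adjusted p = 0.341). Mitf, also a factor of osteoclasts and pigment cells, had 9.17, 8.80 and 9.04 with heme, against 8.22, 8.32 and 8.65 with vehicle. It was higher at each time with no overlap (mean difference 0.61 ± 0.30, limma, adjusted p = 0.115). Tfec, a family member of macrophages, had 11.02, 10.67 and 10.53 with heme, against 10.71, 10.43 and 10.02 with vehicle, and was higher with heme at each time (limma, adjusted p = 0.355). Tfe3 had 7.95, 7.97 and 7.83 with heme, against 7.53, 7.53 and 7.93 with vehicle, higher at 6 and 24 h. Foxo3, a factor of autophagy genes, had a mean difference of -0.14 ± 0.075 (limma, adjusted p = 0.842).

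Of 11 genes kept for the Ragulator, the Rag GTPases and folliculin, which sense nutrients on the lysosome, 1 (9.09%) fell and 0 rose. Of all genes kept, 0.59% fell and 1.13% rose. A mean below 0 was found in 9 of the 11 (81.8%), against 58.6% of all genes kept. Rragd, the GTPase RagD, had 4.83, 5.28 and 5.49 with heme, against 5.80, 6.10 and 6.29 with vehicle. It fell by 0.86 ± 0.10 (limma, adjusted p = 0.0141), and by at least 0.65 when its 6 and 24 h heme levels, which lay below the filter, are set to 5.37. Without the 24 h pair or without the time term it did not pass (limma, adjusted p = 0.271 and 0.338). Fnip2, a folliculin partner, had 8.71, 8.35 and 8.81 with heme, against 9.22, 9.22 and 9.15 with vehicle. Rragc, which encodes RagC, had 8.94, 9.21 and 9.27 with heme, against 9.57, 9.66 and 9.60 with vehicle. Both were lower with heme at each time with no overlap, and neither passed (limma, adjusted p = 0.127 and 0.18). Rragc was named after its values were seen. Lamtor4 and Lamtor5 had the highest means, 0.041 ± 0.48 and 0.053 ± 0.33.

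**Figure D5:**
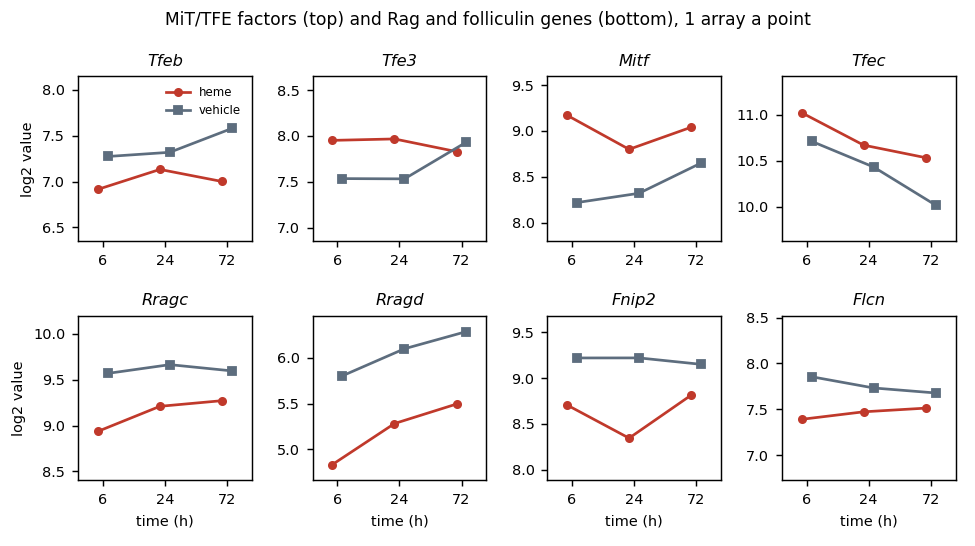
Log2 values (vertical axis) of 4 MiT/TFE factor genes (top) and 4 Rag and folliculin genes (bottom) on the heme (red circles) and vehicle (grey squares) arrays at 6, 24 and 72 h, spaced evenly, with 1 array a point and an equal span of the vertical axis in every panel. Rragd and Rragc are lower with heme at each time and Mitf and Tfec are higher.

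Further lysosomal genes outside the 51 members were counted in the same way. Of 22 other hydrolases and related genes kept, 0 passed, and 19 (86.4%) had a mean below 0. Pla2g15, a lysosomal phospholipase, and Man2b2, a mannosidase, had the lowest means, -0.47 ± 0.23 and -0.45 ± 0.25 (limma, adjusted p = 0.21 and 0.249). Ppt2, a relative of Ppt1, had the highest, 0.35 ± 0.22 (limma, adjusted p = 0.409), and Ggh, a folate hydrolase, the next, 0.14 ± 0.18. Of 21 other membrane proteins kept 0 passed, and 18 (85.7%) had a mean below 0. Clcn7, the chloride-proton exchanger, had the highest mean, with 8.75, 8.73 and 7.89 under heme, against 7.96, 7.82 and 7.76 under vehicle (mean difference 0.62 ± 0.42; limma, adjusted p = 0.157). Mfsd8, a membrane transporter, had 0.15 ± 0.31, and Ostm1, which pairs with CLC-7, and Tpcn1, a cation channel, had the lowest means, -0.33 ± 0.16 and -0.33 ± 0.40. Of 9 further pump subunits and partners kept 0 passed, and 5 (55.6%) had a mean below 0, near the 58.6% of all genes. The lowest means were those of Atp6v0e and Tcirg1, an a subunit form of osteoclasts, -0.16 ± 0.24 and -0.12 ± 0.28, and the highest those of Atp6v0e2 and Atp6v0a2, 0.28 ± 0.26 and 0.065 ± 0.24. Of 13 genes kept for mannose 6-phosphate tagging and sorting, which deliver hydrolases to lysosomes, 0 passed and 8 (61.5%) had a mean below 0. Gnptg and Gnptab, subunits of the enzyme that starts the tag, had mean differences of -0.48 ± 0.20 and 0.28 ± 0.23 (limma, adjusted p = 0.183 and 0.587), the lowest and the highest of that list. Nagpa, which uncovers the tag, and Gga1, a sorting adaptor, had -0.24 ± 0.15 and 0.14 ± 0.21. The list of other hydrolases also holds Lyplal1 and Tmem192, which are not established lysosomal hydrolases.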

How the data were processed

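Biotinylated cRNA of the adherent cells was hybridised to a 1-colour mouse array. The authors deposited log2 expression values for 35556 probe sets after RMA with quantile normalization in ArrayStar, per the series' design text and the submitters' processing notes. No source used here gives their versions. On these log2 values 1 unit is a 2-fold difference. Platform annotation named 1 gene for 21789 probe sets, several for 1621 and none for the 12146 it did not list. For each of 19938 genes the probe set naming it alone with the highest mean was used, and a gene was kept where its highest value reached 5.37 (0.5 quantile of all values). The precision is limited by the number of arrays, 1 for each treatment and time.

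Heme and vehicle were compared with limma 3.58.1 in R 4.3.3, with treatment and time as terms, 2 residual and 7.17 prior degrees of freedom, two-sided, and Benjamini-Hochberg adjustment over all 11516 genes kept. Single times were compared by difference, counted at 1.5-fold. Tables and promoter searches used Python 3.11.15, pandas 2.3.3 and numpy 2.4.6. Alternatives were other normalizations, level filters, probe set rules, variance settings, terms, a 2-fold threshold and leaving out each time.

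Members, lists and tests were chosen with earlier results of these data known. Any member could be named. All 6 values are given for members past the test or past 1.5-fold at any time, for the 3 with the largest mean difference in each direction in each class, and for those of largest change with time. Genes of the other lysosomal lists are named where they passed or had 1 of the 2 largest mean differences in each direction. Tfe3, Rragc, marker genes and genes that passed only for time were named outside this rule, after their values were seen. Protein sequences were not used here. No column of another sample was found in the table.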

Additional observations from a re-analysis of the deposited data

Results flagged for a closer look

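Sgsh, which encodes a heparan sulfate sulfatase, was lower with heme at 6 h and higher with heme at 72 h. Its heme minus vehicle difference was -1.0935 (log2) at 6 h and 0.4205 at 72 h, both with 1 array for each treatment. Whether the difference changed with time was not tested, because no residual degrees of freedom remain. It has the largest SD of the 3 differences among the members, 0.759.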

How the results depend on the processing

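Over 12 alternatives, the number of members called with heme was 2 after median-centring, 0 without the time term and between 0 and 3 when 1 time was left out. The other alternatives gave 1. Leaving out 6 h added Ctsk and Ppt1 to Lgmn. Calls over all genes were 130 higher and 68 lower, against 162 and 117 after median-centring, 115 and 36 after cyclic loess, 122 and 49 after a second quantile normalization, 17 and 1 without the time term, 11 and 1 without 24 h, and 322 and 199 without 6 h. For 72 h against 6 h, 2 members were called without the treatment term, and 2 without 24 h, with 113 and 205 and then 166 and 246 genes higher and lower in all, against 352 and 407. For 24 h against 6 h, 2 were called after median-centring, 0 after cyclic loess, 0 without the treatment term and 2 without 72 h. Over all genes this contrast called 26 higher and 43 lower, and from 0 and 1 without the treatment term to 93 and 121 without 72 h. Past 2-fold, 2, 1 and 1 members were counted at 6, 24 and 72 h. A second quantile normalization put 4 members past 1.5-fold at 72 h. The protease median at 6 h was -0.357 after median-centring and -0.201 after cyclic loess, and at 24 h -0.209 after cyclic loess and -0.245 after repeated quantile normalization. Median-centring gave -0.158 for soluble activators and -0.366 for the V-ATPase at 6 h.

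Signs of small means turned. After cyclic loess Psap had 6e-04 and Cd63 0.011, and after median-centring Atp6v0a1 had -0.025, Atp6v0b -3e-04 and Atp6v1h -0.0081. Leaving out 1 time gave means from -0.137 to 0.051 for Ctsc, -0.321 to 0.057 for Ctsh, -0.189 to 0.084 for Ctsz, -0.153 to 0.166 for Idua, -0.242 to 0.028 for Ids, -0.670 to 0.087 for Sgsh, -0.221 to 0.147 for Cd63, -0.036 to 0.082 for Atp6v0a1 and -0.099 to 0.165 for Atp6v1h. Means below 0 were found in 44 to 49 members under 6 alternatives of scaling, filter and probe sets, against 51.3% to 66% of all genes compared. The 49 came after median-centring, where the share of all genes was 66%. Members lower at all 3 times, 29 in the main setting, numbered 24 after cyclic loess, 26 after a second quantile normalization and 30 after median-centring. The shares of all genes were then 17.1%, 16.6% and 20.1%. The fit pairs heme and vehicle by time; no paired analysis by replicate number was possible because each group has 1 array. The cause of these shifts was not tested. No array was repeated, so no value has an error between cultures.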

Other observations

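Protein inhibitors of lysosomal proteases were measured on the same arrays. Of 5 kept, 0 passed the test with heme in limma. At an unadjusted p under 0.05 in limma 1 (20.0%) was higher, where 4.97% of all genes kept were. That gene was Cst7, which encodes the cathepsin inhibitor cystatin F, with a mean heme minus vehicle difference of 0.54 ± 0.52 (limma, adjusted p = 0.293). It had 5.97, 6.27 and 5.02 with heme at 6, 24 and 72 h, against 5.28, 5.29 and 5.05 with vehicle. All 3 vehicle values and the 72 h heme value lay below the level filter, and with such values set to 5.37 the mean difference was 0.50. Cst7 was thus kept only through its 6 and 24 h heme values, and its p-value is not read as a result. Serpinb6a, an intracellular serpin, had a mean difference of -0.26 ± 0.095, and rose by 0.67 ± 0.16 at 72 h relative to 6 h (limma coefficient ± SE, adjusted p = 0.0415). Serpinb1a, an inhibitor of neutrophil serine proteases, had the lowest mean of the list, -0.27 ± 0.59 (limma, adjusted p = 0.791), with differences of -0.95, 0.13 and 0.004 at 6, 24 and 72 h. Of the 5 genes 3 (60.0%) had a mean below 0, near the 58.6% of all genes kept. Cstb, cystatin B, had a mean difference of 0.060 ± 0.065.

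Among other hydrolases, Galc, which degrades galactosylceramide, and Ctso, a cysteine cathepsin, rose at 72 h relative to 6 h by 1.10 ± 0.17 and 0.70 ± 0.17 (limma, adjusted p = 0.00556 and 0.0439), and Dpp7, a dipeptidyl peptidase, fell (-0.73 ± 0.16; limma, adjusted p = 0.029).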
